A study of Mus musculus with 8 samples.

Results

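The genes of the MCM helicase and of the GINS complex were followed through the polysomes of mouse eggs and one-cell embryos. The members are the 6 MCM genes Mcm2 to Mcm7 and the 4 GINS genes Gins1 to Gins4, 10 of 18193 genes with a probe set of their own on the array. They were chosen by gene symbol, and every probe set that the platform annotation gives to 1 of them was taken, 26 in all. The study held 8 arrays of polysomal mRNA, the mRNA found in clusters of translating ribosomes. On 4 arrays the material was MII oocytes, eggs that have stopped at metaphase of the second meiotic division. On the other 4 it was one-cell embryos kept in α-amanitin, which inhibits RNA polymerase II. The series' text gives 160 to 500 eggs or embryos per batch and calls the 4 replicates of each kind independent. The sources used here do not give strain, age or hour of collection. The MII oocytes carry no label for α-amanitin, so stage and treatment cannot be told apart. Total mRNA was not analysed here, so a different amount of an mRNA and a different loading onto ribosomes cannot be told apart, and neither can fewer contributing eggs and less mRNA per egg.

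Mcm2 to Mcm7 encode the subunits of a ring-shaped hexamer that is loaded onto DNA at replication origins before S phase. GINS, a tetramer of the 4 Gins proteins, joins the loaded ring together with Cdc45, and the resulting assembly is the helicase that unwinds DNA at the replication fork. The egg stores the mRNAs and proteins of this machinery, and the one-cell embryo replicates its DNA in both pronuclei before the genome is widely transcribed. All subunits are needed in the same assembly, so their mRNAs can be compared for the direction in which each moved.

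The RefSeq promoter table (GRCm38.p6, 250 bases before to 50 after each start) held entries for 6 of the 10 members, 7 entries in all. MCM genes are textbook targets of E2F factors, so the letters TTTNGCGC, a form of the E2F motif, were searched on both strands together with CCAAT. TTTNGCGC was found in 4 of the 7 entries, those of Mcm3, Mcm5, Mcm6 and 1 of the 2 entries of Mcm7, against 1.38% of all 32851 promoters. CCAAT was found in all 7 entries, against 37.4% of all promoters. In Mcm7 a CCAAT begins at the last letter of the match. The 250 bases before the start are shown for Mcm2 and Mcm5, because these MCM genes moved in opposite directions, with the matches to TTTNGCGC in capitals. A stretch of Mcm6 is shown for comparison. The Mcm2 window is chr6:88898781-88899030 (minus strand), that of Mcm5 is chr8:75109259-75109508 (plus strand), and the stretch of Mcm6 is chr1:128359797-128359826 (minus strand).
Mcm2: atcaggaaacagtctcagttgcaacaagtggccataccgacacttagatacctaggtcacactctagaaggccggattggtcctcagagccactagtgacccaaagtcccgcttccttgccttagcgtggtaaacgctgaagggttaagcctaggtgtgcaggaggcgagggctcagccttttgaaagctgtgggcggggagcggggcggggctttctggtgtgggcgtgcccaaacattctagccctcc
Mcm5: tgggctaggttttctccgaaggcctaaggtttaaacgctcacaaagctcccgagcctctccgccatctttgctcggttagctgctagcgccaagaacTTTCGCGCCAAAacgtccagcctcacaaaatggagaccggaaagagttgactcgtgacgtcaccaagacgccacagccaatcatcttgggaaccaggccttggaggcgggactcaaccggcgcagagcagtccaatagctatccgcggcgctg
Mcm6: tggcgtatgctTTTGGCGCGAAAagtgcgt
The capitals of Mcm5 are 2 matches on opposite strands that overlap each other, and those of Mcm6 are likewise 2 overlapping matches, of 3 in its whole window. How far α-amanitin blocked transcription in the one-cell embryos was not measured here. The promoter letters are given as a description of the genes only.

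The members did not move as 1 group. Among the GINS genes, Gins1, Gins2 and Gins4 were higher in one-cell embryos, and 1 of the 2 probe sets of Gins3 was lower, close to the threshold. Among the MCM genes, Mcm5 was higher and Mcm2 lower, 1 of the 2 probe sets of Mcm4 was lower, and no probe set of Mcm3, Mcm6 or Mcm7 passed the test. Of the 26 member probe sets, 23 were kept by the filter on dim probe sets, and 10 of those passed the test (limma, adjusted p under 0.05), 6 higher and 4 lower. Over all 23336 probe sets tested, 32.1% differed, 19.3% higher and 12.8% lower. Counted by gene, with each gene taken at its brightest kept probe set, 4 of the 10 members were higher and 2 lower, beside 34.8% of 12359 genes called, 20.1% higher and 14.7% lower. The median log2 change, one-cell embryo minus MII oocyte, was 0.37 over the member genes and 0.16 over all genes. It was -0.14 over the 6 MCM genes and 1.897 over the 4 GINS genes. The groups did not overlap in 9 of the 23 member probe sets, 6 with the embryos higher and 3 with them lower, against 32.6% of all those tested, 19.3% higher and 13.3% lower. All log2 changes are on log2(intensity + 10), which makes the change of a dim mRNA look smaller than it is, and the error given with each is the SE from limma.

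**Figure D1:**
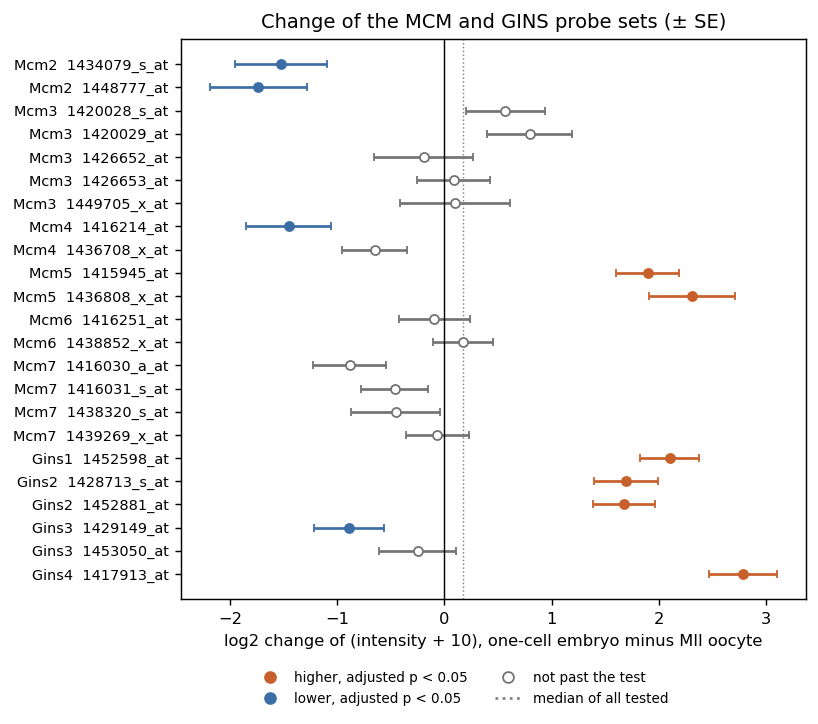
The log2 change of (intensity + 10), one-cell embryo minus MII oocyte, is plotted for each of the 23 member probe sets kept, with bars of 1 SE and filled points for an adjusted p under 0.05. The 6 probe sets of Mcm5, Gins1, Gins2 and Gins4 lie between 1.68 and 2.79, and the 4 lower ones between -1.74 and -0.89.

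The 8 arrays were not equal. One-cell array 1 stood apart from the rest, and 1 control set the stages apart. The median intensity of one-cell array 1 was 71.8, while that of the other 7 lay between 26.9 and 37.9. The geometric mean of its 18 hybridization controls was 14879, while the others had 857 to 3718. The 3′ probe set of 18S ribosomal RNA read 1583 to 2971 on the MII arrays and 10688 to 66754 on the one-cell arrays, with no overlap, while the 5′ and middle probe sets overlapped between the stages. Its part in the member values was not tested. Log2 signals correlated between 0.933 and 0.952 among the MII arrays and between 0.810 and 0.945 among the one-cell arrays. Of the 23 member probe sets, one-cell array 1 gave the lowest of the 4 one-cell values in 12 and the highest in 7. The summed signal of 10 oocyte marker genes, among them Zp3, Gdf9 and Bmp15, was 51522 to 74224 on the MII arrays and 49012 to 76329 on the one-cell arrays. That of the 11 measured of 12 cumulus and granulosa cell genes was 1161 to 1315 and 1051 to 2691, and that of 8 sperm genes 280.4 to 327.9 and 271 to 713, with one-cell array 1 the highest in both. In these lists 5 of the 11 and 3 of the 8 genes lay above the array medians on all 4 arrays of at least 1 group. Of the 22 cumulus and granulosa probe sets, 1 of Cyp11a1 (32.7 to 104.6, adjusted p = 0.032) and 1 of Nr5a2 (64.6 to 209.6, adjusted p = 0.00889) were higher in embryos by their means. Of the 15 sperm probe sets, that of Prm2 was higher (30.3 to 152.3, adjusted p = 0.00103) and 1 of Akap4 lower (88.4 to 19.9, adjusted p = 0.00333). The groups did not overlap in any of these 4. That of Akap4 lay above the array median on 4 oocyte and 0 embryo arrays, so it passed the filter only through the oocytes. Those of Prm2 and Cyp11a1 lay above it on 2 of 4 oocyte arrays and on every embryo array. Most of the 22 and most of the 15 probe sets were too dim to be tested. Over all probe sets tested, 32.1% differed. Of the 13 oocyte probe sets, 5 were higher in embryos and 1 was lower (limma, adjusted p under 0.05). The lower one was that of Gdf9 (23037 to 5574, adjusted p = 0.00096), and the higher ones were those of Bmp15, Nlrp5 and Zp2. The overlapping sums of the oocyte list therefore hide single genes that moved in opposite directions. No probe set of Amh, Ptx3 or Tnfaip6 (cumulus and granulosa cells) or of Prm1, Tnp1, Tnp2 or Smcp (sperm) passed the filter on dim probe sets. The part of these cells in the member values was not tested.

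Mcm2, the subunit at which the ring is known to open when it is loaded, was lower in one-cell embryos on both its probe sets. The brighter one (1434079_s_at) read 4494, 6515, 3195 and 4824 on MII arrays 1 to 4 and 641, 3207, 1526 and 2056 on one-cell arrays 1 to 4. The groups overlapped by 1 array, since one-cell array 2 lay just above MII array 3. The mean fell from 4757 ± 1367 (SD, n = 4) to 1858 ± 1073, which is 2.56-fold lower, with a log2 change of -1.52 ± 0.43 (adjusted p = 0.011). The other (1448777_at) read 4501, 2532, 2425 and 2067 in oocytes and 268, 1645, 1198 and 834 in embryos, with every embryo array below every oocyte array. Its change was -1.74 ± 0.45 (adjusted p = 0.00715). One-cell array 1 gave the lowest value of both, and without it the changes were -1.09 ± 0.31 and -1.21 ± 0.31 (adjusted p = 0.0122 and 0.00705). With the hybridization control signal as a covariate neither passed (-1.04 ± 0.47 and -0.82 ± 0.40, adjusted p = 0.126 and 0.155).

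Mcm4, Mcm6 and Mcm7 form the part of the ring that unwinds DNA by itself in the test tube. Mcm4 lay lower in one-cell embryos on every array of both its probe sets, but only 1 passed. The probe set 1416214_at read 3836, 1727, 3095 and 1608 in oocytes and 419, 1447, 1152 and 812 in embryos, a change of -1.45 ± 0.40 (adjusted p = 0.00946). The brighter one (1436708_x_at) read 3693, 4994, 3607 and 4436 in oocytes and 2402, 3355, 2355 and 2558 in embryos. That is 1.57-fold lower, with a change of -0.65 ± 0.30 (adjusted p = 0.118). As the mean of its 2 probe sets Mcm4 changed by -1.05 ± 0.28 (adjusted p = 0.0102 over gene means). The ending _x_at marks probe sets of which some probes can also bind other transcripts. The call of 1416214_at was lost with that covariate (-0.76 ± 0.38, adjusted p = 0.163) and without one-cell arrays 1 and 4 (-0.89 ± 0.37, adjusted p = 0.0891).

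Neither kept probe set of Mcm6 passed the test. The brighter one (1438852_x_at) had a mean of 951 ± 150 (SD, n = 4) in oocytes and 1092 ± 289.5 in embryos, a change of 0.17 ± 0.28 (adjusted p = 0.705). The other kept one (1416251_at) changed by -0.09 ± 0.33 (adjusted p = 0.874). The groups overlapped in both, and the third probe set (1447756_x_at) was left out as dim, with a mean of 4.5 in oocytes and 18.2 in embryos.

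None of the 4 probe sets of Mcm7 passed either. Their changes were -0.89 ± 0.34 (1416030_a_at), -0.46 ± 0.31 (1416031_s_at), -0.45 ± 0.42 (1438320_s_at) and -0.07 ± 0.30 (1439269_x_at), with adjusted p from 0.0549 to 0.901. The first read 873, 441, 648 and 286 in oocytes and 205, 338, 319 and 261 in embryos. Only MII array 4 lay within the range of the embryos, and without that array this probe set passed as lower (-1.16 ± 0.33, adjusted p = 0.0155). It also passed after quantile normalization (-1.15 ± 0.35, adjusted p = 0.0275) and under a stricter filter at the 75th percentile (adjusted p = 0.0383).

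Mcm3 and Mcm5 sit on the other side of the ring, where Mcm5 borders Mcm2 at the gate through which DNA enters. None of the 5 probe sets of Mcm3 passed, and their changes ranged from -0.19 ± 0.47 to 0.80 ± 0.39. The brightest (1420028_s_at) read 371, 130, 249 and 160 in oocytes and 200, 404, 521 and 237 in embryos, a change of 0.57 ± 0.37 (adjusted p = 0.278). Its groups overlapped widely. Without one-cell arrays 1 and 4 this probe set and 1449705_x_at passed as higher (1.09 ± 0.38 and 1.00 ± 0.32, adjusted p = 0.0464 and 0.0329), as they did once the hybridization control signal was a covariate (1.195 ± 0.36 and 1.29 ± 0.38, adjusted p = 0.0238 and 0.0221).

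Mcm5 was the only MCM gene that rose, and it did so on both probe sets kept. The brighter one (1436808_x_at) read 480, 1046, 449 and 710 in oocytes and 7441, 2287, 2288 and 2628 in embryos. Every embryo array lay above every oocyte array, and one-cell array 1 lay far above the other 3. The change was 2.31 ± 0.40 (adjusted p = 0.000303), and 1.90 at the lowest when each array was left out in turn. The other (1415945_at) read 79.9, 90.9, 66.3 and 59.3 in oocytes and 383, 234, 365 and 246 in embryos, a mean of 74.1 ± 14.1 (SD, n = 4) against 307 ± 77.9. It was 4.14-fold higher, with a change of 1.895 ± 0.30 (adjusted p = 0.00013). The third probe set (1459658_at) was left out as dim, with a mean of 14.2 in oocytes and 44.6 in embryos.

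**Figure D2:**
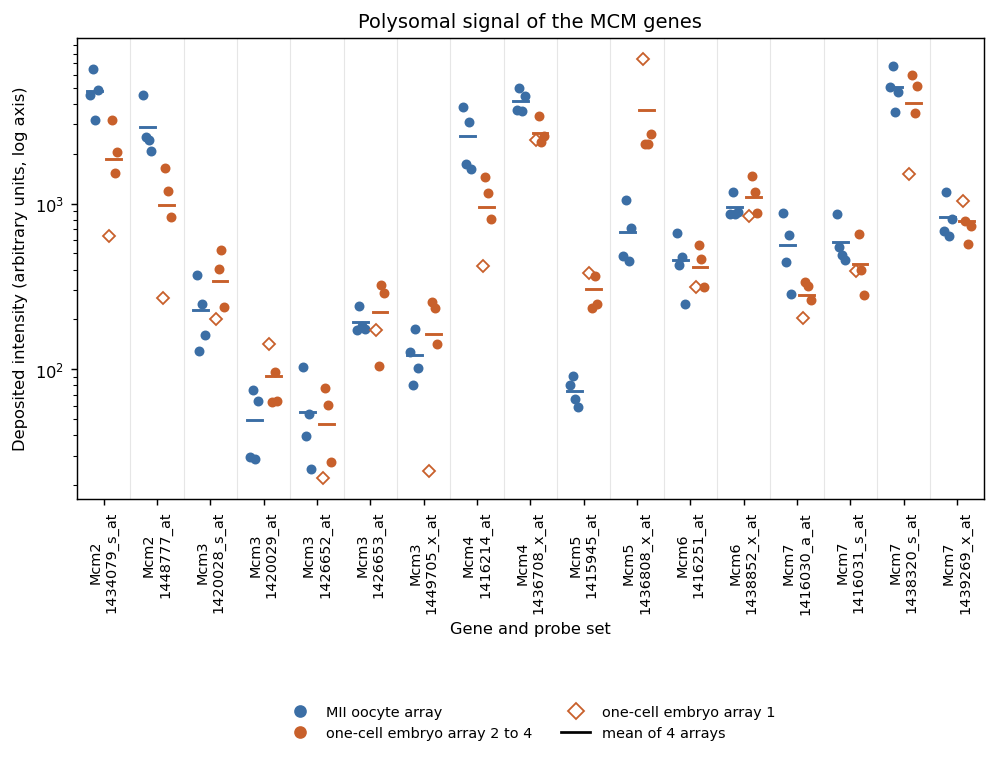
The deposited intensity of each MCM probe set kept is plotted on a log axis for the 4 MII oocyte arrays and the 4 one-cell embryo arrays, with one-cell array 1 as an open diamond and a bar at the mean of each group. The groups stand apart in both probe sets of Mcm4 and Mcm5 and in 1448777_at of Mcm2, and one-cell array 1 lies lowest in Mcm2 and highest in 1436808_x_at of Mcm5.

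Of the GINS genes, 3 rose in one-cell embryos and were separated from the oocytes on every array. Gins4, also known as SLD5, read 108, 143, 94.4 and 108 in oocytes and 435, 951, 1102 and 1051 in embryos on its single probe set (1417913_at). One-cell array 1 was the lowest of the embryos and still more than any oocyte array. The mean rose from 113 ± 21.01 (SD, n = 4) to 885 ± 306, 7.81-fold, with a log2 change of 2.79 ± 0.32 (adjusted p = 7.49e-06), the largest among the members.

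Gins1, also known as PSF1, read 92.9, 98.3, 102.6 and 103.9 in oocytes and 381, 470, 395 and 627 in embryos (1452598_at). The oocyte arrays lay within a narrow band, with an SD of 4.96 around a mean of 99.4, and every embryo array lay far above it. The change was 2.10 ± 0.27 (adjusted p = 2.44e-05), or 4.71-fold by the means. The second probe set (1457981_x_at) was left out as dim, with a mean of 18.2 in oocytes and 28.8 in embryos.

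Gins2, also known as PSF2, rose on both probe sets by nearly the same amount. The brighter one (1428713_s_at) read 193, 225, 101 and 169.5 in oocytes and 726, 548, 477 and 511 in embryos, a change of 1.69 ± 0.30 (adjusted p = 0.000368). The other (1452881_at) read 53.0, 65.3, 52.8 and 64.5 in oocytes and 186, 212, 259 and 188 in embryos, a change of 1.68 ± 0.29 (adjusted p = 0.000297). The lowest embryo array lay above the highest oocyte array in both, and the 2 changes differed by 0.0157 on the log2 scale.

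Gins3, also known as PSF3, did not share this rise. Its brighter probe set (1429149_at) read 162, 254, 188 and 215 in oocytes and 190, 71.3, 85.3 and 99.9 in embryos. One-cell array 1 lay within the range of the oocytes and the other 3 embryo arrays below it. The change was -0.89 ± 0.33 (adjusted p = 0.0466), close to the threshold. Leaving out any single array other than one-cell array 1 ended the call (adjusted p between 0.058 and 0.135), while without one-cell array 1 the change was -1.16 ± 0.26 (adjusted p = 0.00286). The other probe set (1453050_at) changed by -0.25 ± 0.36 (adjusted p = 0.663), and its groups overlapped. As the mean of both, Gins3 changed by -0.57 ± 0.30 (adjusted p = 0.161 over gene means).

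**Figure D3:**
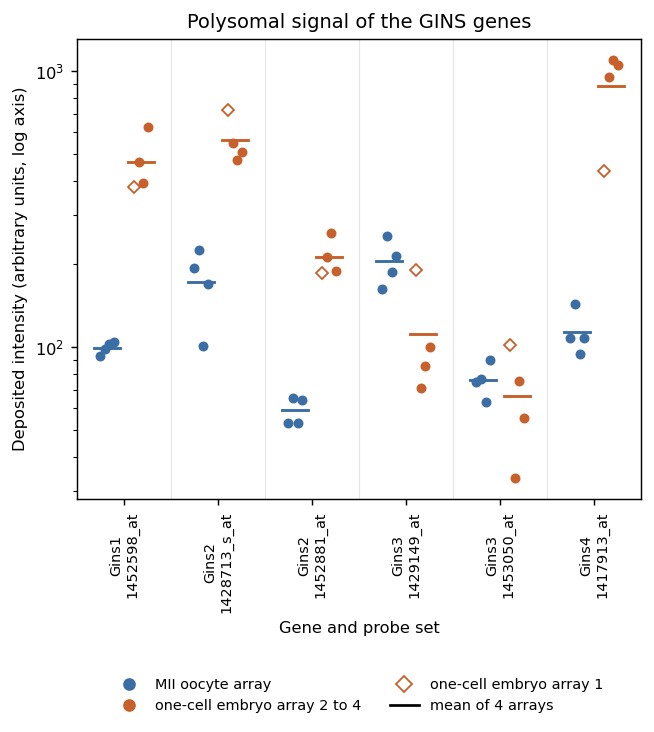
The deposited intensity of each GINS probe set kept is plotted on a log axis for the 4 MII oocyte arrays and the 4 one-cell embryo arrays, with one-cell array 1 as an open diamond and a bar at the mean of each group. The groups do not overlap in the probe sets of Gins1, Gins2 and Gins4, and they overlap in both probe sets of Gins3.

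Other settings of the analysis left the rises called and ended some of the falls. The 6 probe sets of Mcm5, Gins1, Gins2 and Gins4 were called higher under each of the 20 alternatives, with changes between 1.19 and 3.26. None of the called members changed sign under any of them. The median change of all probe sets was 0.17 with the intensities as deposited, -0.12 after quantile normalization and -0.15 with each array centred on its median. Of the probe sets called, 60.2%, 48.7% and 50.8% were higher. Relative to that median, Gins4 changed by 2.62 as deposited and 2.71 after quantile normalization, Mcm5 (1436808_x_at) by 2.14 and 2.61, and Mcm2 (1448777_at) by -1.91 and -1.45. Centring moves all probe sets of an array alike, so it leaves these relative changes as they were by construction.

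**Figure D4:**
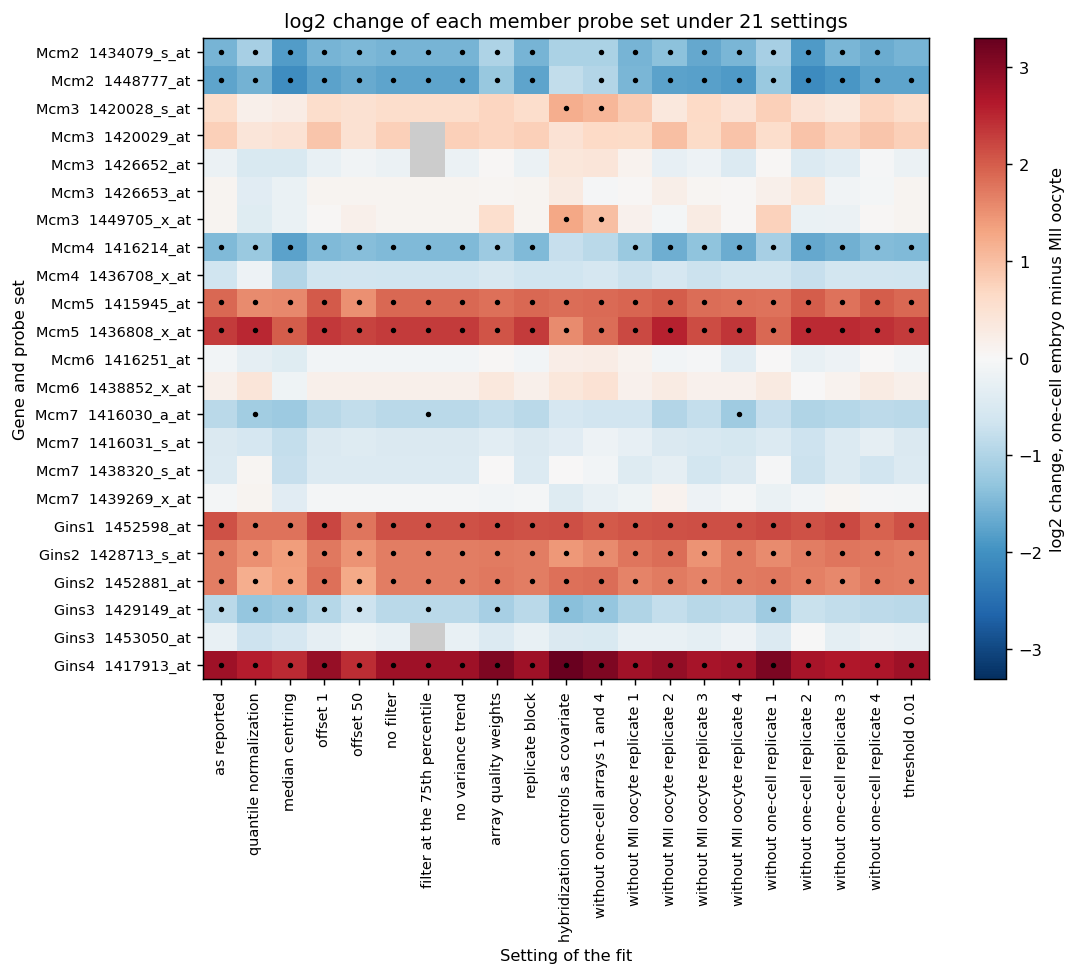
The colour gives the log2 change, one-cell embryo minus MII oocyte, of each member probe set (rows) under the reported setting and 20 alternatives (columns), a black dot marks a call, and grey marks a probe set left out by the stricter filter. The rows of Mcm5, Gins1, Gins2 and Gins4 are called throughout, while those of Mcm2 and of 1416214_at of Mcm4 lose their dots with the hybridization controls as a covariate and that of Gins3 when single arrays are left out.

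The members' partners in origin licensing, helicase activation and the fork also moved in both directions. Of 32 partner genes, 31 had a probe set that passed the filter, and 7 of these were higher and 10 lower in one-cell embryos, against 20.1% and 14.7% of all genes. Their median change was -0.66, beside 0.16 for all genes. Without MII array 1 the counts were 5 higher and 6 lower. Pole, the catalytic subunit of DNA polymerase epsilon, was left out as dim, with a mean of 5.35 in oocytes and 55.3 in embryos.

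Cdc45, which completes the helicase with MCM and GINS, changed by -0.86 ± 0.32 and did not pass (adjusted p = 0.0513). Oocytes averaged 1197 ± 283 (SD, n = 4) and embryos 682 ± 280.2, and the groups overlapped. Cdc45 passed as lower under the filter at the 75th percentile (adjusted p = 0.0402). It also passed without MII array 4 or one-cell array 2 (adjusted p = 0.0478 and 0.0172), but not when any other single array was left out. Mcm10, which helps the loaded helicase to start, rose by 1.21 ± 0.38 (adjusted p = 0.0209), from 876 ± 205 to 2216 ± 937. Its groups overlapped, with one-cell array 1 (829.7) below 3 of the MII arrays, and it did not pass with each array centred on its median (0.89 ± 0.57, adjusted p = 0.281) or without MII array 1 or one-cell array 2, 3 or 4 (adjusted p up to 0.0742). A dim probe set of Mcm10, with a mean of 35.2 in oocytes, also rose (1.44 ± 0.40, adjusted p = 0.00982). Another dim one did not pass (0.72 ± 0.56). Topbp1, part of the platform that brings in GINS, rose by 3.25 ± 0.41 and Recql4, which acts at the same step, by 1.58 ± 0.39. In oocytes Topbp1 lay above the array median on 3 of 4 arrays and Recql4 on 2 of 4. Mtbp, a partner of the activation factor Ticrr, fell by 1.45 on the log2 scale (SE 0.33, adjusted p = 0.00278).

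Among the genes that load the ring or control its loading, the licensing inhibitor Gmnn fell most, from 4626 ± 1977 (SD, n = 4) to 1036 ± 437 (-2.14 ± 0.38, adjusted p = 0.000435). The loading factor Cdt1, which Gmnn binds, changed by -0.17 ± 0.41 (adjusted p = 0.807). Of the origin recognition subunits, Orc2 (2.37 ± 0.26) and Orc3 (2.35 ± 0.40) rose, while Orc6 (-1.74 ± 0.39) and Orc4 (-1.37 ± 0.36) fell. Orc3 lay above the array median on 2 of 4 oocyte arrays, and another probe set of Orc4 rose (0.96 ± 0.34, adjusted p = 0.041). The lower Orc4 probe set did not pass with the hybridization controls as covariate (-0.64, adjusted p = 0.14) or without one-cell arrays 1 and 4 (-0.79, adjusted p = 0.0968). Mcmbp, a chaperone of MCM subunits, did not pass on its brightest probe set (-0.36 ± 0.33), although another was lower (-1.06 ± 0.36, adjusted p = 0.0311). Mcm9, an MCM relative that works in DNA repair, rose by 2.26 ± 0.35, while its other kept probe set did not pass (0.60 ± 0.34). Pole3, a small subunit of DNA polymerase epsilon, fell by 1.98 on the log2 scale (SE 0.31), and its other 2 kept probe sets did not pass (0.42 and -0.48). Mms22l, a fork repair factor, changed by -1.85 ± 0.31 (adjusted p = 0.000246), while its other probe set did not pass (-0.35 ± 0.27).

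**Figure D5:**
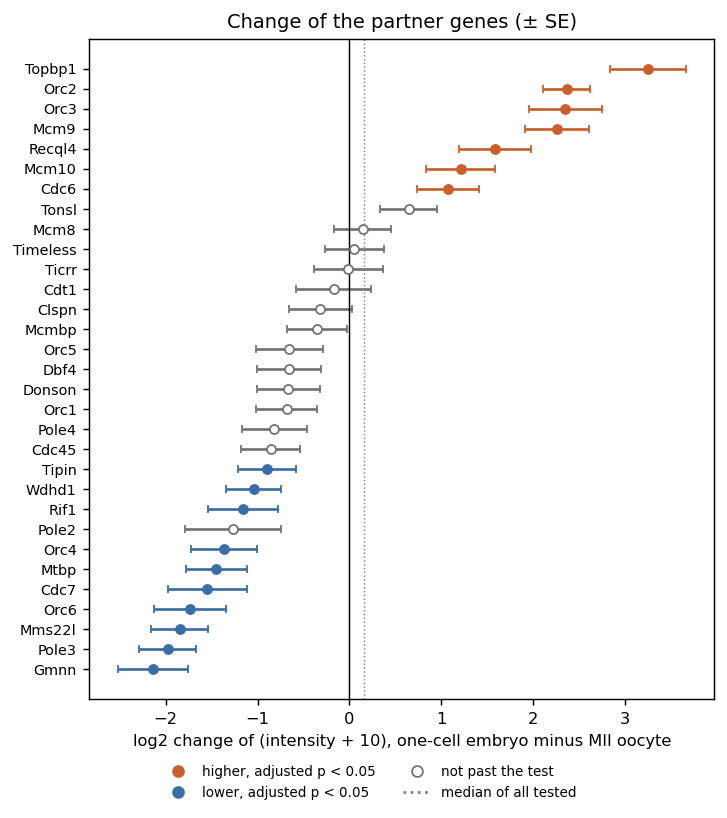
The log2 change of (intensity + 10), one-cell embryo minus MII oocyte, is plotted for the brightest kept probe set of each of 31 partner genes, with bars of 1 SE and filled points for an adjusted p under 0.05. The changes run from -2.14 (Gmnn) to 3.25 (Topbp1), with 7 genes called higher and 10 lower.

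The genes with the pattern most like that of Gins4 over the 8 arrays were Eif3h, Tfb1m and Farp1, with a mean absolute difference in centred log2 signal of 0.112, 0.158 and 0.172. Those most like Mcm5 (1436808_x_at) were Gdi2, Dand5 and Apex1, at 0.0979, 0.196 and 0.198. Dand5 was below the array median on every MII array, with a mean of 12.95, and passed the filter through the embryo arrays, so its distance rests on oocyte values below the filter level. The likeness was ranked over 11525 genes outside the members and their partners, and it includes the high value of one-cell array 1 in the case of Mcm5.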

How the data were processed

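For every array the authors deposited a linear intensity of each probe set, in arbitrary units. The labels give 1 colour (biotin) and 2 rounds of amplification by in vitro transcription. The sources used here name no array software, scaling or build. The mean after leaving out the lowest and highest 2% was 150.0 on every array, so the deposited values share a scale, and they were used without further normalization. Amplification favours 3′ ends, and the scaling removes any change in total polysomal mRNA.

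Values were analysed as log2(intensity + 10). Probe sets brighter than the median of the array on 4 or more arrays were tested, 23336 of 45037 after the 64 controls were left out. The contrast was fitted on all of them by lmFit and eBayes of limma 3.58.1 (R 4.3.3, with the variance trend, two-sided tests adjusted by Benjamini-Hochberg over every tested probe set, threshold 0.05), and the members were read out of that fit. A gene is its brightest kept probe set. Genes are named from GEO's platform annotation. The procedure was tested on simulated data with the same spread in both groups and no outlying array, a simpler case than these arrays. All members are reported. Of 32 partner genes, the 6 with the smallest p in each direction are named, with Cdc45, Mcm10, Cdt1, Gmnn and Mcmbp. Genes of like pattern are the 3 with the smallest mean absolute difference in centred log2 signal over the 8 arrays. The members and lists were chosen with earlier results of these data known. Alternatives covered normalization, offset, filter, variance model, array weights, covariate, replicate block, arrays left out, probe set averaging and threshold.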

Additional observations from a re-analysis of the deposited data

Results flagged for a closer look

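In 3 of the 46 groups of 4 arrays examined (23 member probe sets in each stage), 1 array stood so far from the others that its gap to the nearest made up more than 0.829 of the group's range on the log2 scale. Chance alone flags about 1 in 20 groups. Mcm5 (1436808_x_at) read 7441 on one-cell array 1 against 2287 to 2628 on the other 3 embryo arrays. Gins4 (1417913_at) read 435 on one-cell array 1 against 951 to 1102 on the others. For Mcm6 (1438852_x_at), MII array 2 read 1176 and the other 3 MII arrays 867 to 895. One-cell array 1 also had the brightest hybridization controls. With their signal as a covariate the change of Mcm5 (1436808_x_at) was 1.56 ± 0.36 (limma, adjusted p = 0.00506). That of Gins4 was then 3.26 ± 0.31 (adjusted p = 7.43e-06). The part of the controls in the single flagged values was not tested.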

How the results depend on the processing

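The counts of higher members (6 probe sets, 4 genes) stayed within 1.5 times their value under every alternative run. The count of 4 lower member probe sets was 1 with the hybridization controls as a covariate and 2 at a threshold of 0.01, and it lay between 3 and 4 when each array was left out in turn. The count of 2 lower member genes was 1 without the filter, without the variance trend and with the covariate, and between 1 and 2 with 1 array left out. At a threshold of 0.01 it was 0 (limma), where 3 had an unadjusted p under 0.05. The count of 10 lower partner genes was 5 with the covariate, 5 without one-cell arrays 1 and 4, 6 at a threshold of 0.01, and between 6 and 12 with 1 array left out. With the replicate number as a block (replicate block), 1 member gene was lower, since Gins3 lost its call (adjusted p = 0.0758). Deviations of arrays with the same number correlated between -0.16 and 0.14. MII arrays 1 to 4 correlated best with one-cell arrays 3, 4, 3 and 4. The numbers were not taken as pairs, but with 4 arrays per stage these values cannot exclude pairing. Of 457 values of single member probe sets under alternatives, 434 kept their side of the threshold, 16 lost and 7 gained a call. With 4 arrays in each group, precision is limited by their number.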
